A study of Homo sapiens with 9 samples.

Results

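The family of miR-28, miR-151 and miR-708 comprises miRNAs whose hairpins derive from LINE-2 repeats, an old class of transposable element. Its members were chosen by name, both arms of each hairpin, which gave 6 of the 2652 mature miRNAs counted: hsa-miR-28-5p, hsa-miR-28-3p, hsa-miR-151a-5p, hsa-miR-151a-3p, hsa-miR-708-5p and hsa-miR-708-3p. All 6 were measured in 9 small RNA libraries from lysates of ES-2 ovarian cancer cells, an established line that was wild type and untreated in every group. The study trapped miRNAs by miTRAP, in which lysate passes over a bait RNA whose MS2 loops tether it to a resin by way of a fused coat protein, to ask which miRNAs associate with the 3'UTR of PD-L1, an inhibitory immune checkpoint ligand encoded by CD274. The input group was lysate RNA, the MS2 control group was RNA retained by a bait of MS2 loops alone, and the PD-L1 3'UTR group, here the PD-L1 trap, was RNA retained by the 3'UTR bait, with 3 replicates each. More of the 3'UTR bait than of the control bait was immobilised, so bait sequence and bait amount cannot be told apart.

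A miRNA hairpin is cut into a 5p and a 3p arm, of which usually 1 is loaded into Argonaute as the guide while the other is discarded. The guide then pairs with target mRNAs mainly through its seed, bases 2 to 8. Each hairpin of the family sits in an intron of a protein-coding gene, miR-28 in LPP, miR-151a in PTK2 and miR-708 in TENM4. From general knowledge, miR-28-5p and miR-708-5p share a seed, whereas miR-151a-5p starts at another position of the same ancestral sequence. miR-28-5p is known as a restraint on B cell lymphoma growth, miR-151a-5p for promoting tumour cell migration together with its host gene, and miR-708-5p for limiting metastasis.

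The sequences below show how close the arms of different hairpins remain and where their seeds lie. They are those of RefSeq (GRCh38.p14), whose table matched 3 of the 6 members by name, written 5′ to 3′ with the seed in capitals.
miR-28-3p: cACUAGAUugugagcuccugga
miR-708-3p: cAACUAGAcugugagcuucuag
miR-708-5p: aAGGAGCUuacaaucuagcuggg
miR-28-3p lies on the forward strand at chr3:188688834-188688855, and miR-708-3p (chr11:79402032-79402053) and miR-708-5p (chr11:79402077-79402099) lie on the reverse strand of chromosome 11. In the GRCh37 annotation both hairpins were intronic in their host gene and on its strand. The 3p arms of miR-28 and miR-708 differ by 5 single-base edits and share the 8-base run UGUGAGCU, which starts at base 9 of miR-28-3p and at base 10 of miR-708-3p. Their seeds are not the same. Among the 2370 mature miRNAs of this table the seed of miR-708-5p was found in miR-3139 as well, whereas those of miR-28-3p and miR-708-3p were found in no other listed miRNA (the sequence of miR-28-5p was not analysed here).

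Each input library held from 3794799 to 5983577 miRNA counts, each MS2 control library from 1156261 to 2236535 and each PD-L1 library from 672824 to 1237652. Levels are counts-per-million values (CPM) scaled by TMM, a method that assumes most miRNAs do not change. In the 3 comparisons below, 60.0%, 66.4% and 69.9% of the tested miRNAs had an edgeR adjusted p under 0.05, so by that count the assumption was not met. The TMM factors were 0.742 to 0.782 in the input and 1.11 to 1.25 in the trapped groups. Changes against the input therefore depend on the scaling, and results with library totals are given for them. Under TMM, 3 counts were worth between 0.676 and 4.02 CPM. Each read stands for 1 mature miRNA, so levels were not divided by length. CPM are shares of a library, so a gain of 1 miRNA and a loss of others cannot be told apart, nor can fewer cells and less RNA per cell. No miRNA defines an ovarian cancer line. As a check for other cell types, 13 miRNAs known from blood, liver, nerve, muscle and endothelium were summed. Before TMM scaling they gave 340 to 364 CPM in the input, 647 to 805 in the MS2 control, and 5260.0, 1226 and 1377 in PD-L1 trap replicates 1, 2 and 3, and miR-144-3p, an erythroid miRNA, was the 1 marker with at most 3 counts in each library. Marker counts in input replicates 1, 2 and 3 summed to 1844, 1292 and 2078. Of these, miR-142-3p held 432, 228 and 403, miR-142-5p 572, 331 and 517, and miR-9-5p 784, 650 and 1111. The MS2 control libraries held 193, 104 and 76 counts of the muscle miRNA miR-1-3p, against 6, 11 and 11 in the deeper input libraries. Erythroid miR-451a held 130, 81 and 110 against 8, 7 and 11, and liver miR-122-5p 73, 127 and 53 against 13, 8 and 7. By contrast, miR-9-5p held 122, 293 and 179 counts in the MS2 control. The source of these counts was not tested. PD-L1 trap replicate 1 stood apart within its group, with 2024 counts of miR-1-3p against 75 and 35 in replicates 2 and 3, 469 of miR-206, likewise from muscle, against 1 and 0, and 806 of the endothelial miR-126-3p against 27 and 18. Why it stood apart was not tested. The comparisons were refitted without this library, and the log2 changes of the PD-L1 trap without it are given beside the full values.

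All 6 members passed the filter on low counts that left 408 miRNAs. Together they took 0.462% ± 0.023 (SD, n = 3) of input reads, 1.6% ± 0.046 in the MS2 control and 1.29% ± 0.034 in the PD-L1 trap. miR-151a-3p made up most of this, with 85.6% ± 1.13 of the family's counts in the input, 92.0% ± 1.45 in the MS2 control and 91.2% ± 0.614 in the PD-L1 trap. It ranked 28th of 408 in the input and 14th in the MS2 control. miR-28-3p ranked 78th in the input, and the other 4 members lay between place 166 and place 219.

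**Figure D1:**
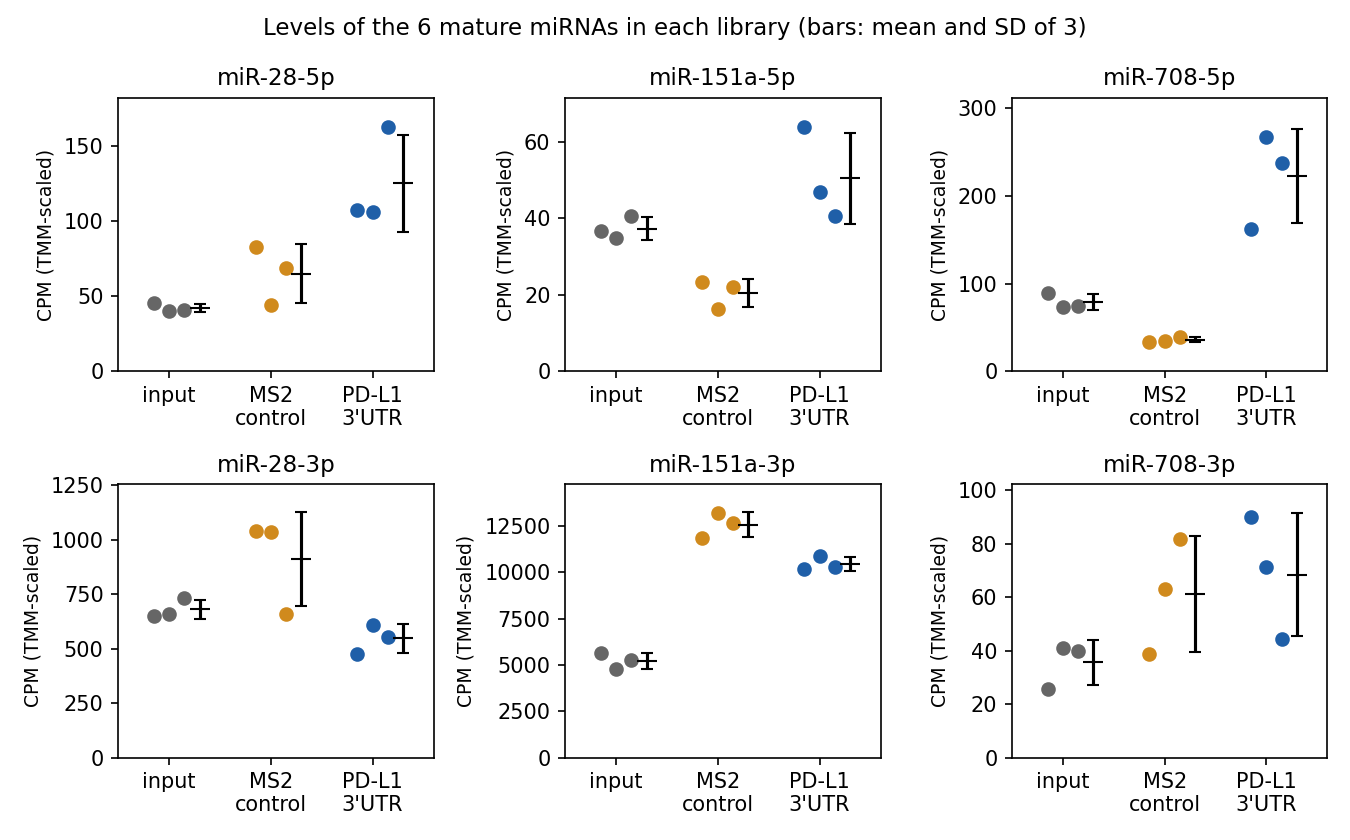
CPM of each member in each library (vertical axes from 0, a different range per panel), with input in grey, MS2 control in orange and PD-L1 trap in blue, and the mean and SD of 3 replicates as bars. The 5p arms in the upper row were highest in the PD-L1 trap, and miR-28-3p and miR-151a-3p in the lower row were highest on average in the MS2 control.

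The PD-L1 trap was set against the MS2 control to find miRNAs held by the 3'UTR and not by loops and resin alone. The 5p arms of all 3 hairpins were higher in the PD-L1 trap, whereas of the 3p arms 0 were higher and miR-28-3p was lower. With edgeR (quasi-likelihood, Benjamini-Hochberg adjusted p under 0.05), 4 of 6 members passed, where 60.0% of all 408 miRNAs did (31.4% higher and 28.7% lower), so the number of calls was near the background. Among all tested miRNAs named as 5p arms 38.8% were higher and 29.8% lower in this comparison, and among those named as 3p arms 28.7% were higher and 25.3% lower. In 5 of 6 members the libraries of both traps did not overlap, where 65.7% of all miRNAs did not. The members had a median log2 fold change of 0.56, beside 0.02 over all miRNAs.

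miR-708-5p changed most among the members. It had 33.6, 34.9 and 39.3 CPM in MS2 control replicates 1, 2 and 3, 163, 267 and 238 CPM in the PD-L1 trap replicates, and 89.7, 73.8 and 74.3 CPM in the input. The groups did not overlap, with the MS2 control lowest, the input between and the PD-L1 trap highest. Over the MS2 control the log2 fold change was 2.63 ± 0.24 (SE, edgeR adjusted p of 3.73e-06), a 6.18-fold rise. It was 2.76 without PD-L1 trap replicate 1, the lowest of its group.

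miR-151a-5p was the least abundant member in both trapped groups. It had 23.3, 16.3 and 21.9 CPM in the MS2 control libraries, 63.7, 47.0 and 40.6 CPM in the PD-L1 trap and 36.6, 34.7 and 40.6 CPM in the input. Every PD-L1 trap library lay above every MS2 control library, while the lowest of them (40.63 CPM) barely cleared the highest input library (40.55 CPM). The log2 fold change over the MS2 control was 1.31 ± 0.27 (SE, edgeR adjusted p of 0.00156), and 1.05 without PD-L1 trap replicate 1. miR-151b, a separate locus whose mature sequence overlaps that of miR-151a-5p, held 20, 13 and 22 counts in the input, 0, 1 and 0 in the MS2 control and 6, 0 and 4 in the PD-L1 trap. How reads were split between these names cannot be told from counts, and summing both gave a log2 fold change of 1.37.

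miR-28-5p had 108, 106 and 163 CPM in the PD-L1 trap and 82.8, 44 and 68.9 CPM in the MS2 control libraries, against 45.2, 40.5 and 41.0 CPM in the input. The trapped groups did not overlap, although the MS2 control replicates were spread widely and replicate 2 lay within the input range. The log2 fold change over the MS2 control was 0.95 ± 0.28 (SE, edgeR adjusted p of 0.0121), and 1.01 without PD-L1 trap replicate 1. Without PD-L1 trap replicate 3, the highest library, it was 0.72 and the call was lost (adjusted p of 0.0548, with a range from 0.0027 to 0.0548 over alternatives).

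Among the 3p arms, miR-28-3p went the other way from its partner. Its level was 1039, 1036 and 661 CPM in the MS2 control libraries, 476, 609 and 556 CPM in the PD-L1 trap and 649, 661 and 732 CPM in the input. The PD-L1 trap libraries were the lowest of the 9. Over the MS2 control the log2 fold change was -0.74 ± 0.19 (SE, edgeR adjusted p of 0.00658), a level 1.67-fold lower, and -0.70 without PD-L1 trap replicate 1.

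miR-151a-3p, the abundant arm of its hairpin, had 11832, 13180.2 and 12627 CPM in the MS2 control libraries, 10176, 10862 and 10289 CPM in the PD-L1 trap and 5629, 4777 and 5289 CPM in the input. Both trapped groups lay well above the input and did not overlap each other. The log2 fold change between them was -0.26 ± 0.11 (SE, edgeR adjusted p of 0.0526), just outside the threshold, and -0.30 without PD-L1 trap replicate 1. It passed at -0.26 without input replicate 1, at -0.31 without MS2 control replicate 1 and at -0.32 without MS2 control replicate 3. It also passed with library totals (-0.32), with only miRNAs of at least 10 CPM on average (-0.37), with loci kept separate (-0.36) and with only the groups compared in the model (-0.31), and in 7 of 18 alternatives in all.

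miR-708-3p was measured least steadily. It had 38.8, 63.0 and 81.7 CPM in the MS2 control libraries, 89.9, 71.1 and 44.3 CPM in the PD-L1 trap and 25.8, 41.1 and 39.9 CPM in the input. The trapped groups overlapped, with a log2 fold change of 0.16 ± 0.35 (SE, edgeR adjusted p of 0.711). Its sign turned when either MS2 control replicate 1 (-0.078) or PD-L1 trap replicate 1 (-0.15) was dropped.

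The comparison with the input asks which miRNAs were concentrated on the 3'UTR relative to the lysate. Here 4 of 6 members were higher and 0 lower, where 66.4% of all miRNAs passed, 34.1% higher and 32.4% lower. The higher members were 2 of the 5p arms and 2 of the 3p arms, where 38.2% of all 5p names were higher and 31.5% lower, and 33.9% of all 3p names were higher and 30.5% lower. In 6 of 6 members the libraries did not overlap with the input, where 74.8% of all miRNAs did not. The median log2 fold change of the members was 0.97, beside 0.04 over all miRNAs. miR-28-5p had 1.57 ± 0.28 (SE, edgeR adjusted p of 0.000635) and miR-708-5p had 1.49 ± 0.22 (adjusted p of 0.000216). These were the members higher than both the MS2 control and the input. miR-151a-3p had 1.00 ± 0.11 (adjusted p of 2.11e-05), a level 2.00-fold that of the input, and so was higher than the input without being higher than the MS2 control. Without PD-L1 trap replicate 1 these changes were 1.58, 1.57 and 0.92.

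The remaining members were less certain against the input. miR-708-3p passed at 0.94 ± 0.35 (SE, edgeR adjusted p of 0.0356), but lost the call without any 1 of the input libraries (0.75, 1.06 and 1.03 without replicates 1, 2 and 3), without MS2 control replicate 3 (0.82), or without PD-L1 trap replicate 1 (0.56) or 2 (0.91). The call was also lost with no filter on low counts (0.68) and with loci kept separate (0.86), and it held in 10 of 18 alternatives. miR-151a-5p had 0.44 ± 0.26 (adjusted p of 0.153), and 0.12 without PD-L1 trap replicate 1. miR-28-3p had -0.32 ± 0.19 (adjusted p of 0.166) although its libraries did not overlap with the input, and was -0.33 without PD-L1 trap replicate 1. It passed at -0.42 without MS2 control replicate 3, at -0.57 with no filter and at -0.43 with only the groups compared. Scaling by library totals in place of TMM raised the median of all miRNAs by 0.57 on the log2 scale and took the share of higher calls from 51.3% to 68.3%. Under it miR-151a-5p passed at 1.01 and miR-28-3p stood at 0.25, and the other 4 stayed higher.

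The MS2 control was compared with the input to measure what the trap retains without any 3'UTR. miR-151a-3p was higher in the MS2 control, by a log2 fold change of 1.26 ± 0.11 (SE, edgeR adjusted p of 3.85e-06), and 2 of the 5p arms were lower, where 27.6% of all 3p names were higher and 39.7% lower, and 34.8% of all 5p names were higher and 36.5% lower. miR-708-5p had -1.14 ± 0.23 (adjusted p of 0.00111) and miR-151a-5p had -0.87 ± 0.26 (adjusted p of 0.0121). With 3 of 6 members called, against 69.9% of all miRNAs (32.8% higher and 37.0% lower), the family was not called more often than the background. In 3 of 6 members the libraries did not overlap, where 75.5% of all miRNAs did not. The members' median was 0.52, beside 0.02 over all miRNAs. Of the others, miR-28-5p had 0.62 ± 0.28 (adjusted p of 0.0665), miR-28-3p 0.42 ± 0.19 (adjusted p of 0.0694) and miR-708-3p 0.78 ± 0.35 (adjusted p of 0.0683). Each of these passed without 1 MS2 control library, at 0.84 without replicate 2, 0.56 without replicate 3 and 1.02 without replicate 1, respectively, and miR-708-3p also at 0.78 without PD-L1 trap replicate 3. With DESeq2 size factors miR-28-5p (0.69) and miR-708-3p (0.85) passed, by the DESeq2 test all 3 did (0.68, 0.50 and 0.85, respectively), and miR-708-3p passed at 0.84 with only miRNAs of at least 10 CPM. Library totals raised the median of all miRNAs by 0.63 and the share of higher calls from 47.0% to 65.7%. With them miR-28-5p (1.26), miR-28-3p (1.06) and miR-708-3p (1.39) passed beside miR-151a-3p (1.89), and miR-151a-5p (-0.24) and miR-708-5p (-0.52) did not.

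**Figure D2:**
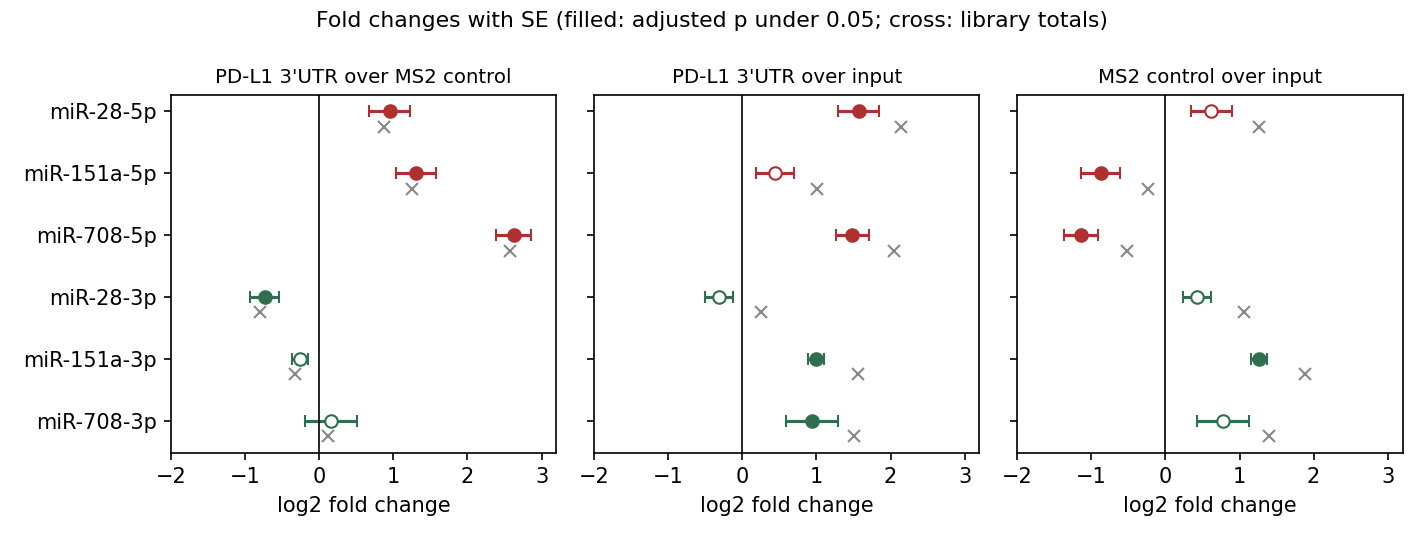
Log2 fold change with SE of each member in the 3 comparisons (horizontal axes, log2 scale), 5p arms in red and 3p arms in green, filled where the edgeR adjusted p was under 0.05, with grey crosses for scaling by library totals. Over the MS2 control the 5p arms lie between 0.95 and 2.63 and the 3p arms between -0.74 and 0.16, and crosses stand to the right of the circles in both comparisons with the input.

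The ratio of the 2 arms of a hairpin within a library does not depend on how libraries are scaled. It was taken as the log2 ratio of 5p to 3p reads, with 0.5 reads added to each arm, and compared by limma over the 101 hairpins with both arms tested. With the PD-L1 trap the ratio was higher than in the MS2 control for all 3 hairpins of the family, which means that 5p reads gained on 3p reads. Of all 101 hairpins, 70.3% changed in this comparison, 36.6% towards the 5p arm and 33.7% towards the 3p arm, so a change as such was common, and in 72.3% the libraries of the 2 groups did not overlap. The median change of the 3 hairpins was 1.67, beside 0.22 over all hairpins, and they ranked 19th, 27th and 30th of 101 from the largest rise.

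miR-708 had the largest change of ratio in the family. The log2 ratio of 5p to 3p reads was 1.79, 0.84 and 0.90 in input replicates 1, 2 and 3, -0.20, -0.85 and -1.05 in the MS2 control and 0.85, 1.90 and 2.42 in the PD-L1 trap. The more abundant arm thus changed, from 5p in the input (2.26 5p reads per 3p read, geometric mean) to 3p in the MS2 control (1.63 3p reads per 5p read) and to 5p in the PD-L1 trap (3.30 5p reads per 3p read). Over the MS2 control the change was 2.42 ± 0.47 (SE, limma adjusted p of 0.000418), and 2.86 without PD-L1 trap replicate 1. The MS2 control ratio lay below the input by -1.88 ± 0.47 (adjusted p of 0.00383), while the PD-L1 trap and input ratios overlapped and differed by 0.55 ± 0.47 (adjusted p of 0.327), or by 0.98 without PD-L1 trap replicate 1, which did not pass either.

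In miR-151a the 3p arm dominated every library. The log2 ratio was -7.26, -7.10 and -7.02 in the input, -8.97, -9.65 and -9.14 in the MS2 control and -7.31, -7.83 and -7.97 in the PD-L1 trap. In geometric means, 140 3p reads stood against 1 5p read in the input, 610.2 in the MS2 control and 209 in the PD-L1 trap. The PD-L1 trap libraries were higher than the MS2 control by 1.55 ± 0.27 (SE, limma adjusted p of 0.000198), or 1.35 without PD-L1 trap replicate 1, and the MS2 control lower than the input by -2.13 ± 0.27 (adjusted p of 1.66e-05). Against the input the PD-L1 trap change was -0.58 ± 0.27 (adjusted p of 0.0761), and it passed at -0.78 without PD-L1 trap replicate 1.

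miR-28 differed from these in its MS2 control. Its log2 ratio was -3.84, -4.02 and -4.15 in the input, -3.64, -4.55 and -3.25 in the MS2 control and -2.14, -2.52 and -1.77 in the PD-L1 trap. Input and MS2 control overlapped (0.19 ± 0.36, SE, limma adjusted p of 0.644), and the PD-L1 trap libraries lay above both. The change was 1.67 ± 0.36 over the MS2 control (limma adjusted p of 0.000804) and 1.86 ± 0.36 over the input (adjusted p of 0.000429), and without PD-L1 trap replicate 1 it was 1.67 and 1.86. As geometric means, 3p reads per 5p read were 16.1 in the input, 14.1 in the MS2 control and 4.42 in the PD-L1 trap. Over the input 66.3% of all hairpins changed, 36.6% towards the 5p arm and 29.7% towards the 3p arm, and 72.3% did not overlap, and miR-28 was the 1 hairpin of the family that passed. Between MS2 control and input 68.3% changed, 32.7% towards the 5p arm and 35.6% towards the 3p arm, and 75.2% did not overlap, and miR-151a and miR-708 were among those that moved towards the 3p arm.

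**Figure D3:**
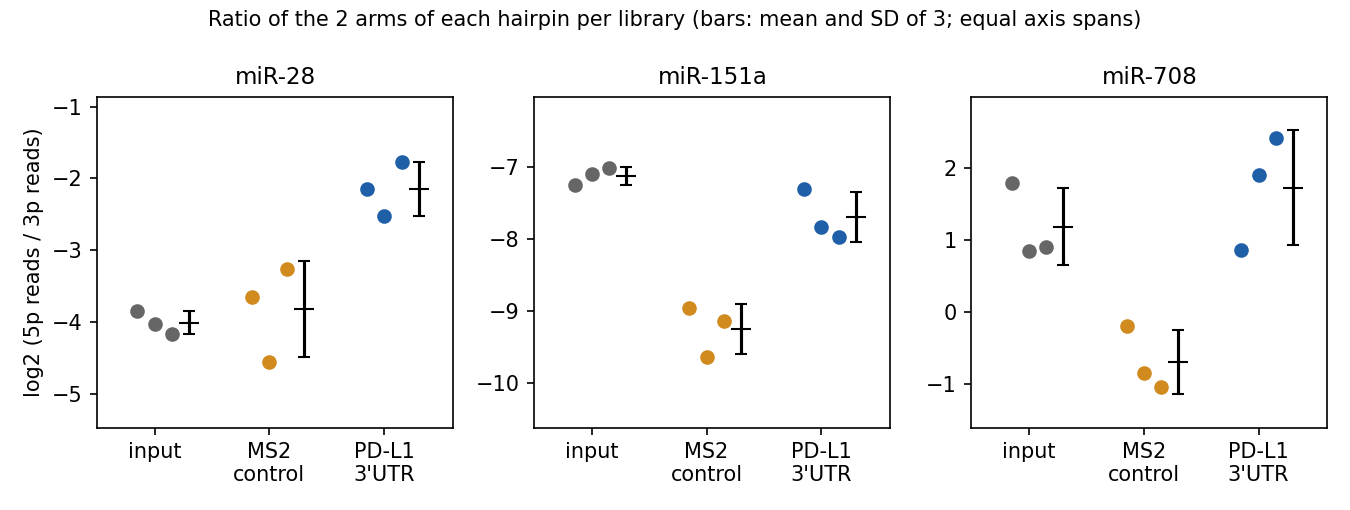
Log2 ratio of 5p to 3p reads per library for the 3 hairpins (vertical axes of equal span on a log2 scale), coloured by group, with the mean and SD of 3 replicates as bars. The MS2 control lies lowest for miR-151a and miR-708, and the PD-L1 trap lies above the MS2 control in each panel.

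Seed matches were sought in the CD274 3'UTR for the 3 members with a sequence shown above, on the transcript strand of GENCODE's longest CD274 3'UTR (CD274-201), 2704 bases on the forward strand of chromosome 9, at chr9:5467863-5470566 (GRCh37). How much of it the bait covered was not analysed here. The letters sought were ATCTAGT and TCTAGTA for miR-28-3p, AGCTCCT and GCTCCTA for miR-708-5p, and TCTAGTT and CTAGTTA for miR-708-3p. Each pair pairs with seed bases 2 to 8, or with bases 2 to 7 followed by A, and the letters for the 3p arms overlap in part. miR-28-3p had 2 matches, an 8mer at chr9:5468451-5468458 (ATCTAGTA) and a 7mer at chr9:5469809-5469815. miR-708-5p had 1 match, AGCTCCT at chr9:5470196-5470202, and miR-708-3p had 0. In the first 2704 bases of the 5463 annotated 3'UTRs of at least this length, at least 1 match was found in 17.6% for miR-28-3p, 28.0% for miR-708-5p and 22.1% for miR-708-3p. The other 3 members were not searched, so these matches do not describe the whole family. By the shared seed named above from general knowledge, the match of miR-708-5p would hold for miR-28-5p too. A match in letters is a description and not a measured site.

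Of 5 relatives listed beside the family, 0 passed the filter on low counts. miR-3139, which has the seed of miR-708-5p, held 1, 2 and 1 counts in the input, 0 in each MS2 control library and 2, 0 and 0 in the PD-L1 trap. miR-95-3p, from another LINE-2-derived hairpin, held at most 5 counts in a library, and miR-95-5p and miR-325 held 0 in all 9.

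The 2 arms of a hairpin were not the closest pairs among the members. The root mean square difference of log2 CPM over the 9 libraries, each miRNA centred on its own mean, was 0.91 between the arms of miR-28, 0.92 for miR-151a and 1.14 for miR-708. Each of these lay below the median distance of either arm to the 402 other tested miRNAs. For the 5p and 3p arms these medians were 1.25 and 1.04 for miR-28, 1.15 and 1.19 for miR-151a, and 1.42 and 1.20 for miR-708. The closest pair of members came from different hairpins, miR-151a-3p and miR-708-3p at 0.46, and the most distant were miR-28-3p and miR-708-5p at 1.37. By the same measure over the 402 other tested miRNAs, the patterns most like miR-151a-3p were those of miR-99b-5p (0.15) and miR-1304-5p (0.20), beside a median of 1.19. For miR-28-3p they were miR-181a-2-3p (0.15) and miR-1287-5p (0.18), beside a median of 1.04. miR-708-5p was closest to miR-12136 (0.24) and miR-30e-5p (0.29), miR-151a-5p to miR-589-5p (0.27) and miR-222-3p (0.28), and miR-28-5p to miR-125b-5p (0.33) and miR-155-5p (0.34). miR-708-3p had its nearest neighbours further away, miR-3158-3p and miR-30d-3p at 0.38 each. These distances describe 9 libraries that fall into groups and differ in depth.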

How the data were processed

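Per the labels, the submitters' notes and the methods, adapters were removed by the authors using cutadapt 1.18, alignment used Bowtie2 2.2.6, and featureCounts 1.6.3 counted reads on miRBase mature miRNAs. The deposited table holds raw counts per locus, and no normalisation was applied. The submitters' processing notes name hg38, and the methods name GRCh37 or 38. Groups and replicate numbers follow sample titles. The methods describe experiments as biological triplicates in general. Whether these replicates were separate cultures was not stated, so p values measure the spread between libraries.

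Loci of 1 name were summed, and each member had 1 locus. By chi-square, every pair of replicates differed by more than sampling noise. miRNAs were kept by filterByExpr, scaled by TMM and fitted in 1 model of 3 group means over the 9 libraries (edgeR 4.0.16, R 4.3.3, glmQLFit and glmQLFTest, two-sided), with Benjamini-Hochberg adjustment over all 408. The SE is the log2 fold change divided by the square root of F. Arm ratios were fitted with limma 3.58.1 (eBayes with trend). Both procedures were tested on simulated counts. Counting floors cover counting error only, since PCR copies are not independent molecules. Alternatives were DESeq2 size factors, library totals, DESeq2 1.42.0, other filters, separate loci, miR-151a-5p summed with miR-151b, only the groups compared, the replicate number as a block, other arm-ratio settings, and leaving out each library.

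The members, the lists and the naming rule (all members, 5 relatives, and the 2 miRNAs of most similar pattern per member) were chosen with earlier results of these data known.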

Additional observations from a re-analysis of the deposited data

How the results depend on the processing

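The arm ratio over the MS2 control was called for 3 of 3 hairpins under every alternative run. Leaving out each library gave 3 to 5 members called over the MS2 control, 3 to 4 over the input and 3 to 4 for the MS2 control over the input, and 1 to 2 hairpins for the arm ratio over the input, the 2 being reached without PD-L1 trap replicate 1. In the MS2 control over the input, 3 members were called as reported, against 5 with DESeq2 size factors and 6 with the DESeq2 test. The sign turned for miR-28-3p over the input with library totals (0.25), for miR-708-3p over the MS2 control without MS2 control replicate 1 (-0.078) or PD-L1 trap replicate 1 (-0.15; range -0.15 to 0.40 over libraries left out), and for the miR-28 arm ratio between MS2 control and input without MS2 control replicate 3 (-0.093; range -0.093 to 0.56). None of these 4 values passed the test. The cause was not tested. With the replicate number as a block, 4, 4 and 3 members were called in the 3 comparisons, as without it, and 126 miRNAs were higher and 117 lower over the MS2 control. Same-numbered libraries deviated with correlations from -0.18 to 0.13 across miRNAs, so the numbers were not taken to pair the samples, and the block changed no call of a member. The 6-base seed matches numbered 3, as did the longer ones. Counts between 29 and 224 for miR-28-5p, miR-151a-5p and miR-708-3p in trapped libraries limit how small a change could be seen there. Likewise, miR-708-5p held 52, 88 and 52 counts in MS2 control replicates 1, 2 and 3, against 230, 199 and 328 in the PD-L1 trap.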
